A study of Homo sapiens with 8 samples.

Results

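The NEDD4 family comprises the HECT ubiquitin ligases SMURF1, SMURF2, NEDD4, NEDD4L, WWP1, WWP2, ITCH, HECW1 and HECW2, and its messages were followed in human lens epithelial cells. The 9 genes were taken by symbol (GENCODE release 29, GRCh38) from a count table of 58735 genes, and all 9 were found. The cells were SRA01/04, a human lens epithelial line, and belonged either to a line established with a short hairpin RNA against SMURF1 (shSmurf1, 4 libraries) or to a negative control line (shControl, 4 libraries). The labels give the genotype of the shSmurf1 line as Smurf1 knockdown and of the shControl line as WT. The cells of all 8 libraries had received 48 h of TGF-β2 (20 ng/ml), a cytokine known to induce fibrosis in the lens. The family was therefore not measured without TGF-β2. The labels describe no further hairpin and no rescue of SMURF1, so its loss cannot be told apart from anything else that separates the shSmurf1 line and the shControl line.

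A HECT ligase takes ubiquitin from an E2 enzyme onto a cysteine of its own catalytic domain and then passes it to a lysine of the substrate. Members of the NEDD4 family share a lipid-binding C2 domain, WW domains that hold PPxY motifs of substrates and adaptors, and a HECT domain at the C-terminal end. In TGF-β and BMP signalling, SMURF1, SMURF2, NEDD4L and WWP1 are known to mark SMAD proteins and, through the adaptor SMAD7, the type I receptors for destruction. The study asked how SMURF1 acts on lens epithelial cells in fibrotic cataract.

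The catalytic site that the family shares is printed here as coding DNA around the codon of its cysteine, which is in capitals, to show how alike the genes are where they are most conserved in function. Each window holds 24 coding bases on either side of that codon, was read 5′ to 3′ from the principal transcript in GENCODE release 29, and spans an intron in the genome (GRCh38 positions of the first and last base are given). WWP1 is named only.

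SMURF1 (chr7:99030659-99033062, minus strand): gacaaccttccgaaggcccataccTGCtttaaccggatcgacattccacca
SMURF2 (chr17:64545923-64546288, minus strand): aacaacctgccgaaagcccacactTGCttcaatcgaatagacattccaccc
NEDD4 (chr15:55829975-55830539, minus strand): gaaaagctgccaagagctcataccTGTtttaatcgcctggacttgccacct
NEDD4L (chr18:58391534-58396191, plus strand): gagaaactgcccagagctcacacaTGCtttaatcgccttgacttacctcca
WWP2 (chr16:69939388-69939865, plus strand): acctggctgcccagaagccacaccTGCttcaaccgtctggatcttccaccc
ITCH (chr20:34504378-34507719, plus strand): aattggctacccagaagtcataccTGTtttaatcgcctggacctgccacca
HECW1 (chr7:43554777-43561851, plus strand): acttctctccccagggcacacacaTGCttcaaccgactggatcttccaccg
HECW2 (chr2:196201352-196215878, minus strand): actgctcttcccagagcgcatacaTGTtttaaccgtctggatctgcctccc

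The cysteine is codon 699 of 731 in SMURF1 and codon 716 of 748 in SMURF2, 32 codons before the end of both. Of the 51 bases of the SMURF1 window, SMURF2 has the same base at 41, NEDD4 at 36 and HECW2 at 31. Over the coding sequence, SMURF1 and SMURF2 were identical at 70.7% of 2170 aligned bases, yet their longest exact shared run was 15 bases. The longest run shared by any pair of the 9 principal transcripts was 29 bases, between NEDD4 and NEDD4L. Processed or duplicated copies were longer matches: WWP1P1 shared up to 109 bases with WWP1 and SMURF2P1 up to 54 with SMURF2. WWP1P1 held 0 to 3 counts per library and SMURF2P1 40 to 54 in shSmurf1 and 30 to 61 in shControl, whereas SMURF2 itself held 1728 to 2118 in shSmurf1 and 2115 to 2393 in shControl.

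Library totals ranged from 14688651 to 16789144 counts in shSmurf1 and from 15000813 to 17030394 in shControl. Of 12 markers of lens epithelium, PAX6, SIX3, CDH2 and VIM were expressed at a tested level, while FOXE3, PITX3, SOX2, MAF, CRYAA and CDH1 never exceeded 3 counts in a library. Summed, the lens epithelium list stood at 1930 to 2260 CPM (CPM being counts scaled to a common library size) in shSmurf1 and 2480 to 2520 CPM in shControl. Most of it was VIM, at 1710 ± 133 CPM in shSmurf1 and 2120 ± 18.1 CPM in shControl (SD, n = 4 each). Of the 4 tested markers 0 were higher and 2, VIM and SIX3, were lower. Over all genes tested, 10.3% were higher and 12.2% lower in shSmurf1. PAX6 (log2 fold change 0.02; edgeR adjusted p = 0.878) and CDH2 (-0.14; edgeR adjusted p = 0.0519) did not pass. The retinal pigment epithelium list summed to 19.6 to 22.0 CPM in shSmurf1 and 24.8 to 26.1 CPM in shControl, and 1 of its 3 tested markers was lower. The fibroblast list summed to 1590 to 2280 CPM in shSmurf1 and 1990 to 2210 CPM in shControl, most of it COL1A1 (1880 ± 303 CPM in shSmurf1 and 2000 ± 96.2 CPM in shControl; SD, n = 4 each). Of its 4 tested markers 2, PDGFRB and LUM, were higher in shSmurf1 and 0 lower by edgeR, against 10.3% and 12.2% of all genes. PDGFRB had a log2 fold change of 0.38 (edgeR adjusted p = 9.79e-05). LUM stood at 1.97 to 2.5 CPM in shSmurf1 and 0.135 to 0.56 CPM in shControl, with as few as 2 counts in a library. It passed the filter on low counts only through the shSmurf1 libraries, where it was high, so its call adds no support. With 3 or 4 tested markers in each of these lists, the counts do not tell whether cell identity differed. The part of these marker differences in the family's differences was not tested. Leukocyte markers summed to 0.192 to 0.672 CPM in shSmurf1 and 0.179 to 0.757 CPM in shControl. The 4 corneal keratins summed to 0 to 0.131 CPM in shSmurf1 and 0 in shControl. Endothelial markers summed to 0.986 to 3.01 CPM in shSmurf1 and 2.21 to 3.46 CPM in shControl. Lens fibre markers summed to 6.32 to 8.01 CPM in shSmurf1 and 6.67 to 9.27 CPM in shControl. No tested endothelial or lens fibre marker passed. Library shSmurf1 replicate 3 stood apart from its group in its trend with GC content. The trend was taken on log2 CPM minus each gene's mean over all libraries, so the slopes are relative to one another. In replicate 3 this value fell by 0.107 for each 10 percentage points of GC content. In the other 3 shSmurf1 libraries it rose by 0.071 to 0.11, with slopes of -0.0582 to -0.0261 in shControl.

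Of the 9 members, 4 were lower and 1 was higher in shSmurf1, and 4 did not pass the test. The lower members were SMURF1 itself, NEDD4L, NEDD4 and SMURF2, and the higher one was HECW1, at a low level. WWP1, WWP2, ITCH and HECW2 did not pass. The test was edgeR's quasi-likelihood test of raw counts with Benjamini-Hochberg adjustment over all 15647 genes tested, with a threshold of 0.05 on the adjusted p. In that fit 22.5% of all genes passed, 12.2% as lower and 10.3% as higher in shSmurf1, against 55.6%, 44.4% and 11.1% of the 9 members. All 9 members passed the filter on low counts. Their median log2 fold change was -0.17, against 0.01 over all genes tested. The shares and the median of the members include SMURF1, the hairpin's own target. They also rest on SMURF2 and HECW1, whose calls held in 10 and 6 of 17 other settings.

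**Figure D1:**
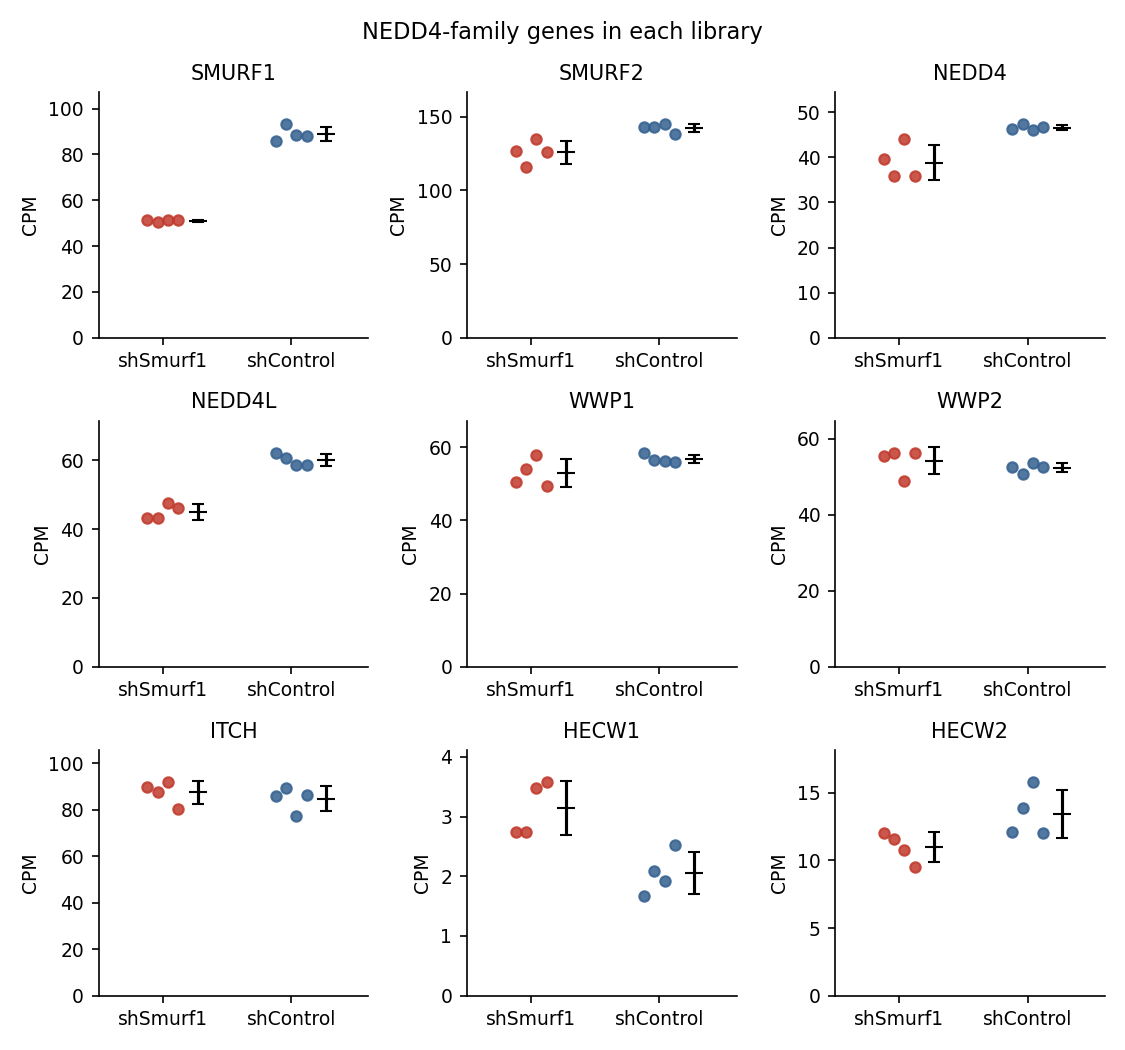
Library-scaled counts (CPM, axis from 0) of each of the 9 genes in the 4 shSmurf1 (red) and 4 shControl (blue) libraries, with the mean and SD beside the points. SMURF1 and NEDD4L separate by the widest margins, while ITCH, WWP1 and WWP2 overlap.

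SMURF1 (ENSG00000198742, chr7:99027438-99144100, minus strand), the hairpin's target, was measured at 51.4, 50.4, 51.4 and 51.2 CPM in shSmurf1 libraries 1 to 4, against 85.8, 93.3, 88.5 and 88.1 CPM in shControl libraries 1 to 4. Every shSmurf1 library lay far below every shControl library. The shSmurf1 mean was 57.5% of the shControl mean, with a log2 fold change of -0.80 (95% interval -0.91 to -0.68; edgeR adjusted p = 2.86e-09). The raw counts behind these levels were 750 to 859 per shSmurf1 library and 1385 to 1438 per shControl library. The SD over the 4 shSmurf1 libraries was 0.491 CPM, smaller than the 1.81 CPM that counting alone would give at that depth, and over the shControl libraries it was 3.17 CPM against 2.37 CPM from counting. In bulk libraries, fewer cells carrying the knockdown and less SMURF1 RNA per cell cannot be told apart.

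SMURF1 sits in a stretch of chromosome 7 where many genes were lower in shSmurf1. Among the 113 other genes tested within 5 Mb, 47 were lower and 1 was higher, or 41.6% lower against 12.2% of all genes, and their median log2 fold change was -0.23. SMURF1 lay at -0.57 relative to that median, or 67.5% of control once the neighbours' median is taken as the baseline, and 5 of the 113 had a more negative log2 fold change. The result was -0.59 with neighbours within 2 Mb and -0.55 with those within 10 Mb. The nearest protein-coding gene tested, TRRAP, a scaffold of histone acetyltransferase complexes, averaged 244 ± 10.4 CPM in shSmurf1 and 287 ± 9.49 CPM in shControl (SD, n = 4 each), with a log2 fold change of -0.24 (edgeR adjusted p = 0.00128). Its exons share 735 bases with those of SMURF1 on the opposite strand, 11.7% of the annotated SMURF1 exon length. The labels' protocols describe no strand-marking step, so whether reads from that stretch were assigned by strand is not known. On the same side, BAIAP2L1, a membrane-curving actin regulator, lay at -0.41 and BRI3 at -0.21, and on the other side PDAP1 lay at -0.18, all past the threshold, while the actin-nucleating ARP2/3 subunits ARPC1A and ARPC1B (-0.19 and -0.39) did not pass. ARPC1A passed as lower without shSmurf1 replicate 3 (-0.27; edgeR adjusted p = 0.00361, with 0.00361 to 0.412 over all settings), and so it did with the GC trend also removed. The call of PDAP1 was lost without shSmurf1 replicate 2 or shControl replicate 1, and that of BRI3 in 7 of 17 other settings. The edgeR adjusted p of BRI3 ran from 0.0176 to 0.157 over them, and that of PDAP1 from 4.37e-05 to 0.0767. The part of this regional shift in the fall of SMURF1 was not tested.

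**Figure D2:**
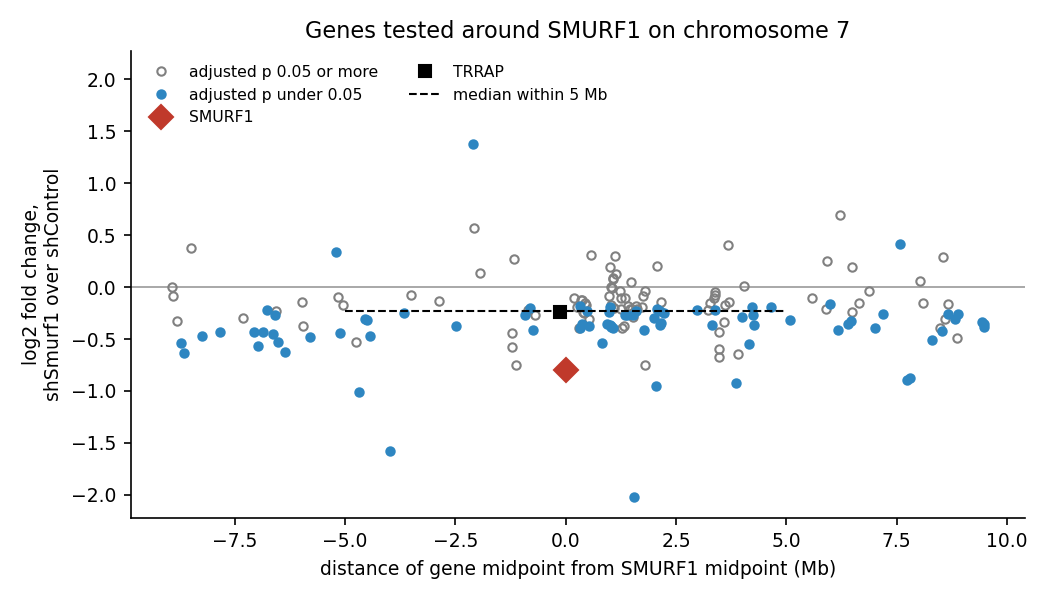
Log2 fold change (shSmurf1 over shControl) of each gene tested within 10 Mb of SMURF1, against the distance of its midpoint from that of SMURF1 in Mb. Most genes lie below 0 around a median of -0.23 (dashed, within 5 Mb), and SMURF1 (diamond, -0.80) lies below that median.

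SMURF2 (ENSG00000108854, chr17:64542295-64662068, minus strand), the closest relative of SMURF1 and a ligase for SMAD proteins and TGF-β receptors, was measured at 127, 116, 135 and 126 CPM in shSmurf1, against 143, 143, 145 and 138 CPM in shControl. The groups did not overlap, though the highest shSmurf1 library, replicate 3, came within about 3 CPM of the lowest shControl library. SMURF2 was lower in shSmurf1, at 88.8% of control (log2 fold change -0.17, 95% interval -0.28 to -0.06; edgeR adjusted p = 0.0253). The call was lost when each library's trend with GC content was removed (-0.096; edgeR adjusted p = 0.0931, also without shSmurf1 replicate 3) and when any 1 of 5 libraries was left out (shSmurf1 replicates 1 and 2, shControl replicates 1, 2 and 3), the adjusted p running from 0.000467 to 0.162 over the 17 other settings. The longest SMURF2 transcript has a GC content of 39.3%. Of the 84 neighbours of SMURF2 on chromosome 17, 17 were higher and 4 lower (20.2% and 4.76%, against 10.3% and 12.2% of all genes). SMURF2 lay at -0.26 relative to their median. Its exons share 167 bases with CEP95 on the opposite strand.

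The SMURF paralogs stood in a different ratio in the 2 groups. In CPM per kb of annotated exon, the scale on which levels of different genes are compared, the ratio of SMURF2 to SMURF1 was 2.23, 2.08, 2.36 and 2.22 in shSmurf1, against 1.50, 1.38, 1.47 and 1.41 in shControl. The lowest ratio in shSmurf1 exceeded the highest in shControl. Its denominator is the hairpin's own target, at 57.5% of control, so the higher ratio follows from the fall of SMURF1. SMURF2 itself was not higher, at 88.8% of control. SMURF2 was the more abundant message of the pair in all 8 libraries.

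NEDD4L (ENSG00000049759, chr18:58044367-58401540, plus strand), also called NEDD4-2 and known for removing epithelial sodium channels and activated SMAD2 and SMAD3, showed the largest fall after SMURF1. It was measured at 43.2, 43.1, 47.7 and 46.2 CPM in shSmurf1, against 62.1, 60.7, 58.6 and 58.6 CPM in shControl. The gap between the groups was wider than the spread within either. The shSmurf1 mean was 75.1% of control (log2 fold change -0.41, 95% interval -0.54 to -0.29; edgeR adjusted p = 5.19e-05), and the call held under all 17 other settings, with log2 fold changes of -0.44 to -0.37. Of its 26 chromosomal neighbours, 3 were lower and 1 was higher (11.5% and 3.85%, against 12.2% and 10.3% of all genes). NEDD4L lay at -0.38 relative to their median of -0.04.

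NEDD4 (ENSG00000069869, chr15:55826922-55993746, minus strand), the founding member, whose known substrates include growth factor receptors, also fell. Its values were 39.6, 35.8, 44.0 and 35.9 CPM in shSmurf1, against 46.4, 47.4, 46.0 and 46.7 CPM in shControl. The shControl libraries lay within 1.4 CPM of each other, while shSmurf1 replicate 3 stood nearer to shControl than the other 3 shSmurf1 libraries did. The mean was 83.3% of control (log2 fold change -0.26, 95% interval -0.41 to -0.11; edgeR adjusted p = 0.0116), and the call held under all 17 other settings. With the GC trend removed the fall was smaller, at -0.18 (edgeR adjusted p = 0.0144, with 0.000113 to 0.0449 over all settings). Of its 48 neighbours, 3 were lower and 1 was higher (6.25% and 2.08%, against 12.2% and 10.3% of all genes).

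The ratio of NEDD4L to NEDD4 in CPM per kb was 0.566 to 0.672 in shSmurf1 and 0.655 to 0.699 in shControl, with overlap between the groups.

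**Figure D3:**
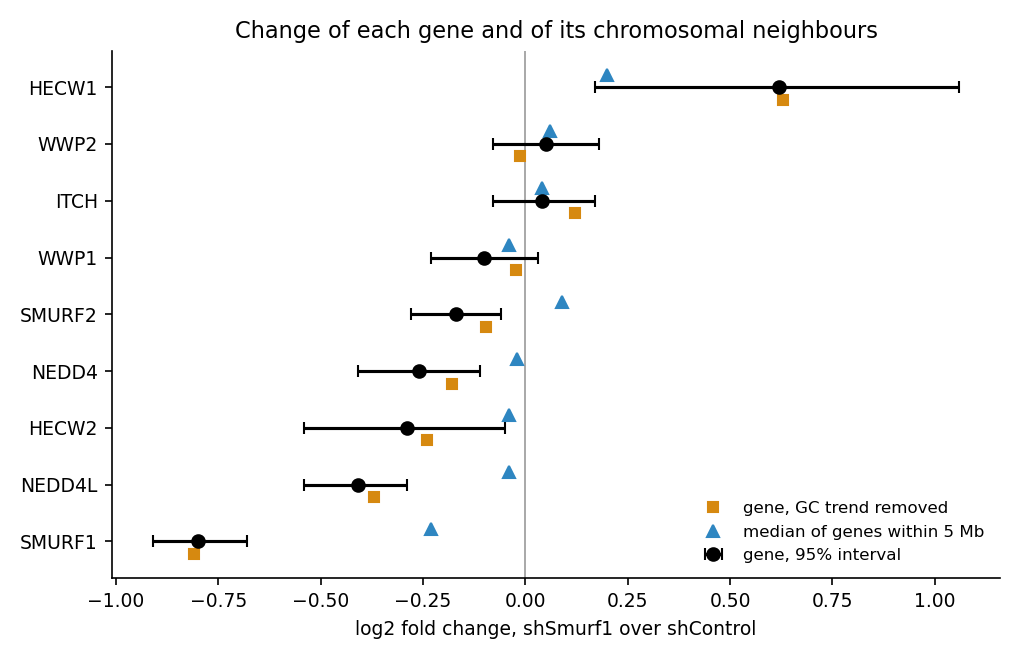
Log2 fold change (shSmurf1 over shControl) of each member with its 95% interval (black), after removal of each library's GC trend (orange squares), and the median of genes tested within 5 Mb (blue triangles). SMURF1 and HECW1 lie in stretches of chromosome 7 whose medians are -0.23 and 0.20, and NEDD4, NEDD4L and WWP1 in stretches with medians near 0.

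WWP1, WWP2 and ITCH, which form a branch of the family with known roles in the control of JUN proteins, p63 and KLF factors, did not pass the test in the fit of all 8 libraries. ITCH (ENSG00000078747, chr20:34363235-34511393, plus strand) was measured at 89.9, 87.5, 92.0 and 80.6 CPM in shSmurf1, against 86.2, 89.6, 77.2 and 86.5 CPM in shControl. The groups overlapped, and the 95% interval of the log2 fold change ran from -0.08 to 0.17 (edgeR adjusted p = 0.663). ITCH passed as higher only when the GC trend was removed and shSmurf1 replicate 3 left out together (0.14; edgeR adjusted p = 0.0315, with 0.0315 to 0.999 over all settings).

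WWP1 (ENSG00000123124, chr8:86342738-86478420, plus strand) was measured at 50.5, 54.1, 58.0 and 49.5 CPM in shSmurf1, against 58.4, 56.6, 56.2 and 55.9 CPM in shControl. Its exons share 247 bases with RMDN1 on the opposite strand. Replicate 3 of shSmurf1 lay inside the shControl range and the other 3 below it. With all libraries the log2 fold change was -0.10 (95% interval -0.23 to 0.03; edgeR adjusted p = 0.291), and without that replicate WWP1 passed as lower at -0.14 (edgeR adjusted p = 0.0424, with 0.0424 to 0.843 over all settings).

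WWP2 (ENSG00000198373, chr16:69762306-69941741, plus strand) was measured at 55.5, 56.2, 48.8 and 56.1 CPM in shSmurf1, against 52.6, 50.7, 53.5 and 52.4 CPM in shControl. Here shSmurf1 replicate 3 was the lowest of all 8 libraries, and the other 3 shSmurf1 libraries were the highest. The 95% interval of the log2 fold change was -0.08 to 0.18 (edgeR adjusted p = 0.629). Across the family, shSmurf1 replicate 3 was the highest shSmurf1 library for SMURF2, NEDD4, NEDD4L, WWP1 and ITCH, whose transcripts have a GC content of 37.7% to 43.5%, and the lowest for WWP2, whose transcript has 57.5%. HECW2, with 42.0%, did not follow this order, replicate 3 being the second lowest of its shSmurf1 libraries. SMURF1, with 51.9%, had replicate 3 level with replicate 1 as its highest shSmurf1 library, both rounding to 51.4 CPM. For HECW1, with 48.1%, replicate 3 stood at 3.48 CPM, below only replicate 4 at 3.58 CPM. The part of GC content in these differences between libraries was not tested beyond the fit with its trend removed.

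HECW1 and HECW2, also known as NEDL1 and NEDL2 and best known from neurons, were the rarest members. HECW1 (ENSG00000002746, chr7:43112599-43566001, plus strand) rested on 43, 41, 53 and 60 counts in shSmurf1, against 28, 31, 31 and 40 counts in shControl, or 2.75, 2.75, 3.48 and 3.58 CPM against 1.67, 2.09, 1.93 and 2.52 CPM. The groups did not overlap, and the spread within them (SD 0.449 CPM in shSmurf1 and 0.358 CPM in shControl) was about that of counting alone (0.448 and 0.36 CPM). The shSmurf1 mean was 153% of control (log2 fold change 0.62, 95% interval 0.17 to 1.06; edgeR adjusted p = 0.0443). The call was lost with DESeq2 (adjusted p = 0.0513), with no filter on low counts (0.0851), with the replicate block (0.0574), with the GC trend removed and shSmurf1 replicate 3 left out (0.0646) and without any library other than shControl replicate 4, and edgeR's and the other tools' adjusted p ran from 0.03 to 0.129. HECW1 lies on the short arm of chromosome 7 among genes that were higher, 31 of 60 within 5 Mb with a median of 0.20. That share was 51.7%, against 10.3% of all genes. HECW1 lay at 0.42 relative to the median of these neighbours.

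HECW2 (ENSG00000138411, chr2:196189099-196593692, minus strand) was measured at 12.0, 11.6, 10.8 and 9.54 CPM in shSmurf1, against 12.1, 13.9, 15.8 and 12.0 CPM in shControl. The highest shSmurf1 and the lowest shControl library both round to 12.0 CPM, so the groups touched without crossing. The log2 fold change was -0.29 (95% interval -0.54 to -0.05) and did not pass (edgeR adjusted p = 0.0765, with 0.0636 to 0.265 over all settings). In all, the groups did not overlap for 6 of the 9 members, against 23.7% of all genes tested. The 6 include SMURF1, the hairpin's own target, and HECW2, which did not pass.

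On the per-length scale, SMURF2 led the family in both groups, at 18.1 ± 1.10 CPM per kb in shSmurf1 and 20.4 ± 0.410 in shControl (SD, n = 4 each). In shSmurf1, ITCH came second at 13.1 ± 0.742 CPM per kb, and SMURF1, at 8.14 ± 0.0782, stood below it and within the range of WWP1 at 8.37 ± 0.609. They were followed by WWP2, NEDD4, NEDD4L, HECW2 and HECW1, each above the next in all 4 libraries. In shControl, SMURF1 came second at 14.2 ± 0.505, above ITCH at 12.7 ± 0.808 in every library. WWP1 and the rest then followed in the same order, again each above the next in all 4 libraries. When levels were divided by the longest annotated transcript instead of all annotated exons, a choice made after the data were seen, WWP2 (12.0 CPM per kb) came before WWP1 (11.3) and SMURF1 (8.91) in shSmurf1, and in shControl NEDD4L (7.11) ranked above NEDD4 (6.44).

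SMURF1 made up 12.8% to 13.7% of the summed family level in shSmurf1 and 19.1% to 20.4% in shControl. The summed level of the 9 members was 61.6, 59.7, 64.2 and 59.7 CPM per kb in shSmurf1, against 71.5, 72.8, 70.5 and 70.6 CPM per kb in shControl. Without SMURF1, the other 8 summed to 51.5 to 56.0 CPM per kb in shSmurf1 and 56.4 to 57.9 in shControl. The sum of the other 8 was lower in every shSmurf1 library than in any shControl library, narrowly so in shSmurf1 replicate 3 (56.0 against 56.4). SMURF2 had means of 18.1 CPM per kb in shSmurf1 and 20.4 in shControl, and its call was lost with the GC trend removed. ITCH, WWP2 and HECW1 had higher means in shSmurf1. The sum was not taken with the GC trend removed. Of all genes tested, 13.1% were lower in shSmurf1 without overlap.

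**Figure D4:**
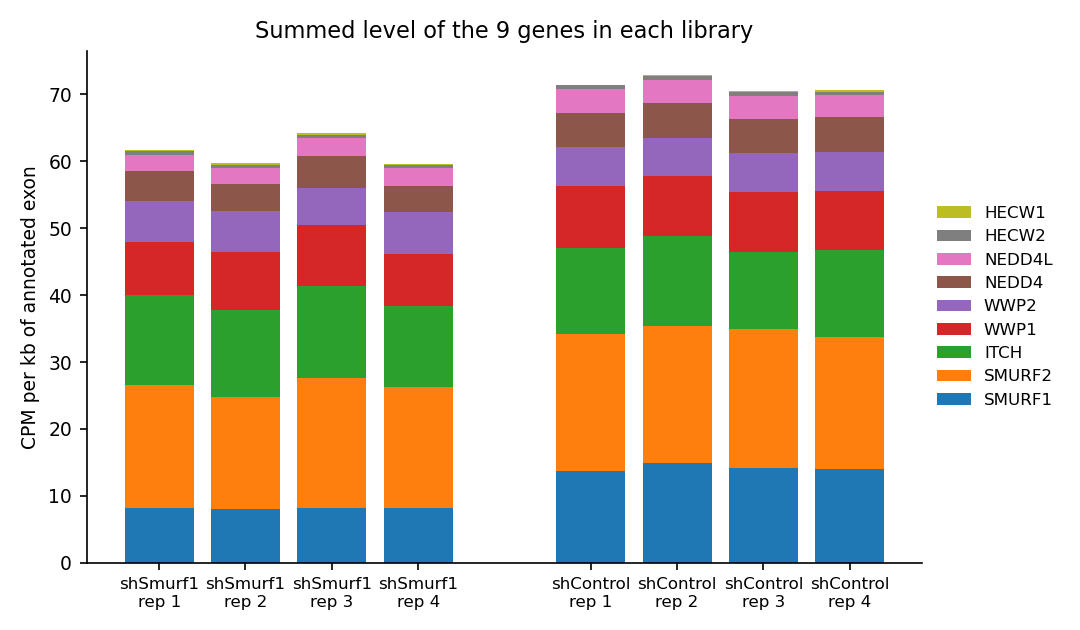
CPM per kb of annotated exon, stacked over the 9 genes, in each of the 4 shSmurf1 and 4 shControl libraries. The shSmurf1 bars reach 59.7 to 64.2 and the shControl bars 70.5 to 72.8, and SMURF1, at the base, is the segment that differs most.

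The genes whose profile over the 8 libraries lay nearest to that of SMURF1 were CTGF (now CCN2), ATL3, TAGLN, ARID5B and WWC1. Nearness was the root mean square difference in log2 CPM, each gene being centred on its own shControl mean, among 11218 protein-coding genes with a mean log2 CPM of at least 2. CTGF, a matricellular growth factor induced by TGF-β, came first at 0.0535, with 379 ± 14.6 CPM in shSmurf1 and 664 ± 47.6 CPM in shControl (SD, n = 4 each). The other 4 lay at 0.0539 to 0.0647, with log2 fold changes of -0.85 to -0.78. These genes were picked for a fall of the same size, and they lie on chromosomes 6, 11, 11, 10 and 5.

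Of the 19 HECT ligases outside the family, all were tested and 2 were lower in shSmurf1, 0 were higher and 17 did not pass, 10.5% changed against 22.5% of all genes. Before adjustment, edgeR's p was under 0.05 for 1 higher and 3 lower genes of this list. After adjustment, 0 were higher by limma-voom or DESeq2. AREL1, an inhibitor of apoptosis, fell to 74.3 CPM in shSmurf1, against 103 CPM in shControl (log2 fold change -0.47 ± 0.051 SE; edgeR adjusted p = 1.39e-06), and UBE3C, a proteasome-associated ligase on the long arm of chromosome 7, fell to 187 CPM, against 232 CPM in shControl (-0.31 ± 0.047 SE; edgeR adjusted p = 6.02e-05). The neighbours of UBE3C had a median of -0.27, which left it at -0.04, whereas AREL1 lay at -0.36 relative to its own. HUWE1, the most abundant of the list at 900 CPM in shSmurf1 and 939 CPM in shControl, did not pass (-0.06 ± 0.047), nor did TRIP12 (-0.02 ± 0.048).

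Among 26 adaptors and regulators of NEDD4-family ligases, 25 were tested, of which 5 were higher, 3 were lower and 17 did not pass, with a median log2 fold change of 0.04. The share changed was 32.0% (20.0% higher and 12.0% lower), against 22.5% of all genes (10.3% higher and 12.2% lower). AMOT, an angiomotin whose PPxY motifs bind the family's WW domains, was the largest change, with 24.9, 22.8, 22.4 and 23.5 CPM in shSmurf1, against 3.76, 4.04, 4.11 and 3.28 CPM in shControl (log2 fold change 2.62 ± 0.11 SE; edgeR adjusted p = 3.88e-12). The other angiomotins on the list did not rise. AMOTL1, at 150 CPM in shSmurf1 and 169 CPM in shControl, was lower (-0.17 ± 0.049; edgeR adjusted p = 0.0174), and AMOTL2 did not pass (-0.02 ± 0.061). PMEPA1, a TGF-β-induced membrane protein that binds NEDD4-family ligases and SMADs, was at 85.1 CPM in shSmurf1 and 58.5 CPM in shControl (0.54 ± 0.070), and WBP2, a WW-domain binding coactivator, rose by 0.43 ± 0.057. WBP2 lies among chromosome 17 genes that were mostly higher, 79 of 118 (66.9%, against 10.3% of all genes). Their median was 0.34, and WBP2 lay at 0.09 relative to it. SGK3, a kinase of the group that inhibits NEDD4L, had a log2 fold change of -0.45 ± 0.15 with overlapping groups and an edgeR adjusted p of 0.0378, a call lost in 10 of the 17 other settings (0.0114 to 0.172). SGK1 and the SMURF1 and ITCH deubiquitinase USP9X did not pass, at -0.01 ± 0.051 and 0.01 ± 0.045. USP9X passed as higher in 1 of the 17 other settings, with the GC trend removed and shSmurf1 replicate 3 left out (0.1; edgeR adjusted p = 0.0317, with 0.0317 to 0.991 over all settings). Without shSmurf1 replicate 3, 8 members were higher and 6 lower, and without shSmurf1 replicate 2, 1 was lower. Over all genes, 2601 were higher and 2747 lower without shSmurf1 replicate 3, and 1552 were lower without shSmurf1 replicate 2. With all 8 libraries, 1611 genes were higher and 1916 lower.

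**Figure D5:**
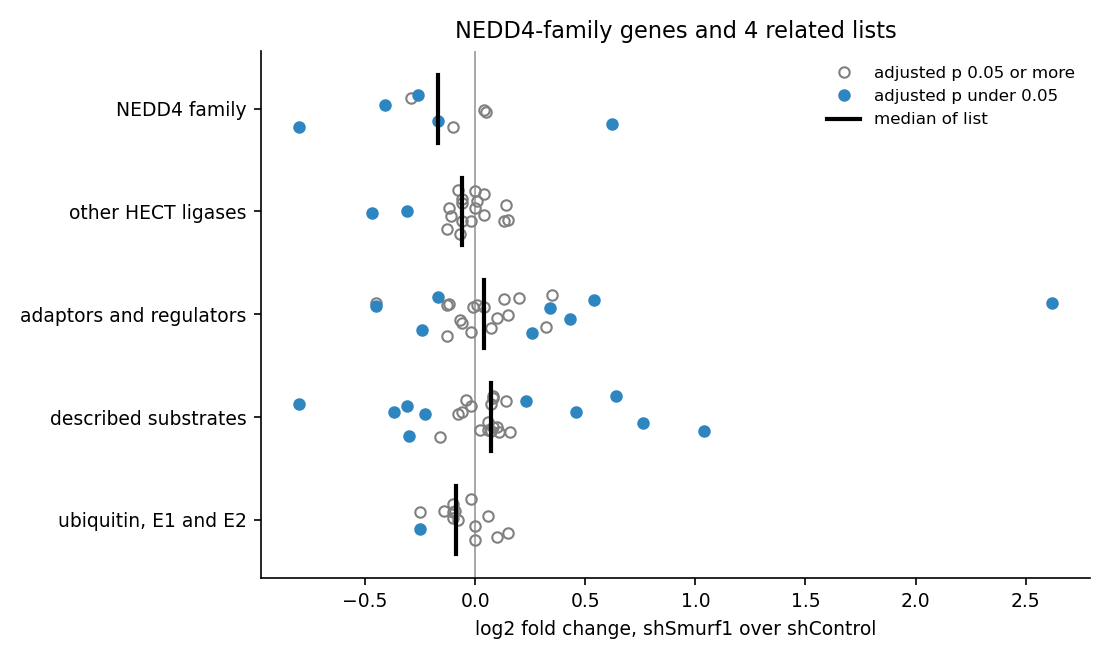
Log2 fold change (shSmurf1 over shControl) of the NEDD4 family and 4 lists of related genes, with genes past the threshold filled and the median of each list as a bar. HECT ligases outside the family cluster near 0, with AREL1 (-0.47) and UBE3C (-0.31) to the left, and AMOT (2.62) stands apart on the right.

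Messages of 32 described substrates of the family were also counted. Of the 27 tested, 5 were higher, 5 were lower and 17 did not pass, and the median log2 fold change was 0.07. The share changed was 37.0%, 18.5% in each direction, against 22.5% of all genes, 10.3% as higher and 12.2% as lower. PRICKLE1, a planar polarity protein degraded through SMURF ligases in mouse, was higher at a low level, with 2.11 CPM in shSmurf1 and 1.02 CPM in shControl (1.04 ± 0.27 SE; edgeR adjusted p = 0.00952). TXNIP, an ITCH substrate, was lower at -0.80 ± 0.061, while JUNB, another, and KLF2, a SMURF1 and WWP1 substrate, were higher at 0.64 ± 0.089 and 0.76 ± 0.10. Their relatives on the list went the other way. JUN was lower at -0.37 ± 0.054 (edgeR adjusted p = 5.7e-05) and KLF5 at -0.30 ± 0.085 (edgeR adjusted p = 0.0158). RHOA, the small GTPase that SMURF1 removes at cell protrusions, had 565 CPM in shSmurf1 and 544 CPM in shControl and did not pass (0.06 ± 0.049). The endocytic adaptor EPN1 did not pass (0.06 ± 0.075), but was higher without shSmurf1 replicate 3 (edgeR adjusted p = 0.00355, with 0.00355 to 0.952 over all settings). The count of higher substrates was 10 without shSmurf1 replicate 3, 8 with the GC trend removed and 3 without shSmurf1 replicate 1 or 2. Over all genes, those higher were 2601 without shSmurf1 replicate 3 and 2058 with the GC trend removed. They were 1242 and 1267 without shSmurf1 replicates 1 and 2, against 1611 in the uncorrected fit of all 8 libraries.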

How the data were processed

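Poly-A RNA was sequenced, with random-hexamer priming and no strand-marking step described in the labels' protocols. The authors deposited whole-number read counts for each gene, without normalization. Their pipeline, per the submitters' processing notes, named CASAVA and fastp, with HISAT2 (2.0.5) as aligner and featureCounts (1.5.0-p3) as counter. Neither build nor annotation was stated in the sources used here. GENCODE release 29 matched all 58735 identifiers and gave symbols, positions, exon lengths and, for the longest transcript, GC content.

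Filtering by filterByExpr (minimum count 10) kept 15647 genes, which were TMM-scaled and tested with edgeR 4.0.16 (R 4.3.3), two-sided, without covariates. CPM are counts over TMM-scaled library size. A standard error is the log2 fold change over the root of F, and 95% intervals use its t quantile. DESeq2 1.42.0 and limma 3.58.1 were alternatives, and the procedure was tested on simulated data. The series text speaks of biological replicates, with no word on separate cultures, so a p-value reflects the spread among these libraries, which may be technical. No 2 libraries of the same group agreed within sampling noise, and pairs across the groups were not checked. Neighbours are tested genes with midpoints within 5 Mb.

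Members, lists and tests were chosen with earlier results of these data known. Named genes are all members, up to 4 changed and 2 abundant unchanged genes per list, the 5 profiles nearest to SMURF1 and the 3 nearest tested coding genes on each side of it. JUN, KLF5, AMOTL1 and AMOTL2 were named in addition, as relatives of genes so picked. Lengths by longest transcript and the GC correction of neighbours were added after the data were seen. 1 gene that the rule for named genes picks is not reported here.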

Additional observations from a re-analysis of the deposited data

Results flagged for a closer look

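WWP2 was lower in shSmurf1 replicate 3, at 48.8 CPM, than in the other 3 shSmurf1 libraries, at 55.5, 56.2 and 56.1 CPM, and its distance from them was large relative to the range of the group (Dixon's criterion for 4 values). Of 18 groups of 4 checked, it was the only one set apart in this way, and chance sets apart about 1 group in 20. WWP2 has the highest GC content of the family, 57.5%. In this library log2 CPM, relative to each gene's mean over all libraries, fell by 0.107 per 10 percentage points of GC content. The part of that trend in the value was not tested.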

How the results depend on the processing

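The falls of SMURF1, NEDD4L and NEDD4 kept direction and call under all 17 alternatives: other scalings, DESeq2, limma-voom, other filters, the replicate block, the GC trend removed with and without shSmurf1 replicate 3, and each library left out. SMURF2 had a log2 fold change of -0.096 with the GC trend removed and -0.082 with shSmurf1 replicate 3 also left out, both without the call, and -0.2 to -0.13 with 1 library left out. WWP2 turned to -0.013 and -0.0049 in those GC settings, and ITCH stood at 0.14 and passed in the second of them. With 1 library left out, ITCH ran from -9.3e-05 to 0.082 and WWP1 from -0.14 to -0.068. HECW1 did not pass with DESeq2 (0.62), no filter (0.61), the replicate block (0.62) or the GC trend removed without shSmurf1 replicate 3 (0.59), and ran from 0.52 to 0.73 with 1 library left out. The family's count of higher members was accordingly 0 with DESeq2, no filter and the block, and 0 to 1 with 1 library left out. SMURF2 relative to its neighbours was -0.18 within 2 Mb and -0.16 with the GC trend removed.

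Without shSmurf1 replicate 3, 5348 genes changed and 2601 were higher, and with any 1 library left out the counts ran from 2763 to 5348 and from 1216 to 2601. The count of lower genes ran from 1547 to 2747. In the same leave-one-out fits, 0 to 1 of the other HECT ligases were higher, 4 to 8 adaptors and regulators were higher and 1 to 6 lower, and 3 to 10 substrates were higher. Among ubiquitin, E1 and E2 genes 0 to 2 were higher and 1 to 6 lower. With the GC trend removed, 8 substrates were higher and 2 ubiquitin, E1 and E2 genes lower, in both GC settings. Over all genes, 2058 were higher and 2355 lower with that trend removed, and 2065 and 2413 with shSmurf1 replicate 3 also left out. Of the ubiquitin, E1 and E2 genes 2 were higher with library totals only, and 1 with DESeq2 or the CPM filter. Small values changed sign, without a call where they did. TRIP12 was 0.0017 with library totals, 0.033 and 0.041 in the GC settings, and -0.045 to 0.0021 with 1 library left out. SGK1 was 0.012, 0.051 and 0.062 in those settings and -0.036 to 0.028 with 1 library left out, and USP9X -0.0028 to 0.035. In the GC settings USP9X was 0.076 and, without shSmurf1 replicate 3, 0.1, where it passed.

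Replicate numbers did not pair the libraries: deviations of same-numbered libraries correlated at 0.121, -0.0146, -0.338 and 0.192, and 1 of 8 libraries correlated best with its own number. The replicate block changed no call of a member other than HECW1. Depth limits HECW1, with 28 to 60 counts per library. The causes of these changes were not tested.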

Other observations

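Of 14 ubiquitin, E1 and E2 genes tested, the enzymes that feed HECT ligases included, 1 was lower in shSmurf1, 0 were higher and 13 did not pass by edgeR, with a median log2 fold change of -0.09. The share changed was 7.14%, against 22.5% of all genes. At an unadjusted p under 0.05, 2 were higher and 4 lower, and after adjustment DESeq2 called 1 higher and limma-voom 0. UBA6, an alternative E1 enzyme, had 106 CPM in shSmurf1 and 125 CPM in shControl (-0.25 ± 0.056 SE; edgeR adjusted p = 0.00311). UBA1, the main E1 enzyme, had 708 CPM in shSmurf1 and 662 CPM in shControl and did not pass (0.10 ± 0.042; edgeR adjusted p = 0.101). UBA1 passed as higher with library totals only (0.12; edgeR adjusted p = 0.0342) and without shSmurf1 replicate 3 (0.11; edgeR adjusted p = 0.0118), and stood at 0.042 with the GC trend removed and 0.0097 with that replicate also left out (adjusted p of 0.0118 to 0.867 over all settings).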
